A study of Mus musculus with 6 samples.

Results

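The genes described here are 10 targets of the tumour suppressor p53 listed as non-apoptotic: Sesn1, Trp53inp1, Phlda3, Zmat3, Tigar, Gdf15, Btg2, Plk2, Plk3 and Ephx1. They were chosen by name, for their known roles in stress control and metabolism, out of 17030 genes in the deposited table, and all 10 were found there. RNA had been sequenced from SCC7, a mouse squamous cell carcinoma line, in 3 control libraries labelled as having no treatment and 3 libraries of cells given radiotherapy, with a dose of 9 Gy named in a protocol text that all 6 samples share. Day 0 is the only time given for any of them, which leaves the hours from exposure to RNA harvest unstated, and nothing in the labels says whether the libraries of a group came from separate cultures. The p-values therefore measure the spread between these libraries, which may be technical.

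p53 is a transcription factor that is stabilised when DNA breaks and then switches on genes that halt division, repair DNA, kill the cell or adjust its metabolism. The genes followed here were listed for roles in slowing growth and limiting damage, and some may also act in the branch that kills. Radiation is a classic trigger of this response.

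Values are FPKM, fragments scaled by transcript length and by the fragments in the library, a scale on which different genes can be compared. The number of reads per library is unknown. The controls varied more than the irradiated libraries, with a median SD per gene of 0.301 against 0.082 on the log2(FPKM + 1) scale. Control 3 stood apart from controls 1 and 2 (Pearson r across genes 0.956 and 0.928, against 0.989 between controls 1 and 2). Its correlation with irradiated libraries 1 to 3 was higher, at 0.9641, 0.9605 and 0.9664, and the cause was not tested. Each control is therefore given separately for every member below, while some other genes are given as a control mean. Of 12 markers of squamous epithelium, 8 stayed below 1 FPKM in every library, among them Krt5, Krt14, Epcam and Cdh1, whereas the simple-epithelial keratin Krt8 measured 371 to 1361 FPKM. Krt18, its partner, averaged 401 ± 168 FPKM in controls and fell to 105 ± 6.47 FPKM (SD, n = 3 per group, adjusted p = 0.0261 by limma), a call lost without any single library other than control 3. Of 7 fibroblast markers, Lum alone stayed below 1 FPKM in every library, and the list summed to 145 to 257 FPKM in controls and 199 to 225 FPKM after irradiation. Leukocyte markers summed to at most 5.80 FPKM, nearly all of it Cd68, and endothelial markers to at most 0.63 FPKM.

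Irradiated cells held higher levels of Btg2, Trp53inp1 and Ephx1, which rose 4.92-fold, 3.93-fold and 1.49-fold as ratios of mean FPKM. These were the 3 of 10 members called by limma at an adjusted p below 0.05, and no member was called lower (0 also at an unadjusted p below 0.05). Of the 11103 genes tested, 12% were called, 9.24% higher and 2.77% lower. The 2 groups were fully separated, with irradiated libraries on the upper side, in 6 members: the 3 named and Zmat3, Tigar and Plk2. The same held for 31.8% of all genes tested. The median log2 fold change was 0.61 over the 10 members and 0.17 over all genes tested. Sesn1, Gdf15, Plk3 and Phlda3 had overlapping groups. The number of members called higher, given here beside the share of all genes called higher, varied with the setting. It was 4 after quantile normalization (5.81% of all genes), 2 after trimmed-mean scaling (6.5%), 3 with no filter (6.49%), 2 with a filter at 5 FPKM (5.69%), 4 without the trend and robust options of limma (10.5%) and 3 with a pseudocount of 0.1 (7.09%). Without control 1 or 2 it was 1 (1.48% and 4.01%), without irradiated library 1, 2 or 3 it was 1 (0.424%, 0.507% and 0.782%), and without control 3 it was 9 (45.8%). Array weights gave 9 (54%) and the sample number as a replicate block 1 (2.34%). Btg2 was among the members called in every setting that tested it. The filter at 5 FPKM left it out. It passed the filter at 1 FPKM through the irradiated group, with 1 control at or above that level. In bulk RNA a change in the number of cells that express a gene and a change in its RNA per cell cannot be told apart.

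**Figure D1:**
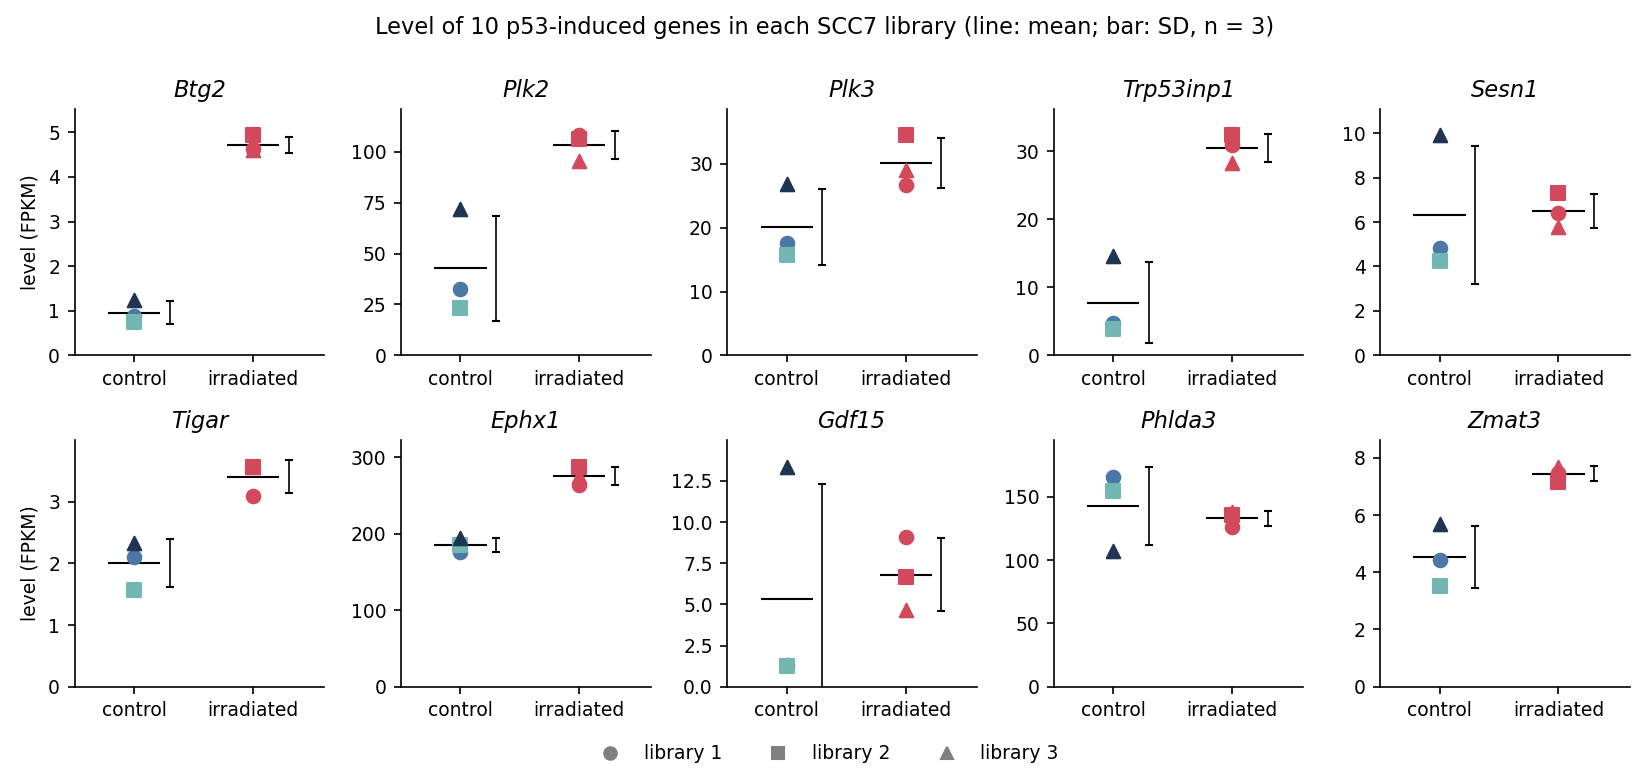
Level in FPKM (vertical axes, linear and starting at 0) of the 10 genes in the 3 control libraries (blue tones) and 3 irradiated libraries (red), with symbols for library 1, 2 and 3, the mean as a line and the SD as a bar, which for Gdf15 controls is truncated at 0. Btg2, Trp53inp1, Ephx1, Plk2, Tigar and Zmat3 show no overlap between groups, and control 3 is the highest control in 9 of the 10 panels, Phlda3 being the exception.

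To set promoter sequence beside these levels, windows from 250 bases before to 50 after each annotated start were read from RefSeq (GRCm38.p6). They were found for 8 of the 10 genes, in 10 windows, but not for Zmat3 or for Trp53inp1, the member with the highest log2 fold change. Both Btg2 and Plk2, next in fold change after Trp53inp1, hold the cAMP response element TGACGTCA, a palindrome bound by CREB and ATF family factors. This motif is present in 1.79% of all 32851 windows. The 250 bases before the start are shown for both, with the motif in capitals. The Btg2 stretch is chr1:134079156-134079405 on the minus strand and the Plk2 stretch is chr13:110394794-110395043 on the plus strand.
Btg2: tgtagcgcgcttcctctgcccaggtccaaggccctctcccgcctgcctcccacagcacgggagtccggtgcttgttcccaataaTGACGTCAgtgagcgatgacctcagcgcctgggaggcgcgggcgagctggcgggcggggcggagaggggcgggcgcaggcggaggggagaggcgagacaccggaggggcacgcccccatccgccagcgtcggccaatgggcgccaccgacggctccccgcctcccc
Plk2: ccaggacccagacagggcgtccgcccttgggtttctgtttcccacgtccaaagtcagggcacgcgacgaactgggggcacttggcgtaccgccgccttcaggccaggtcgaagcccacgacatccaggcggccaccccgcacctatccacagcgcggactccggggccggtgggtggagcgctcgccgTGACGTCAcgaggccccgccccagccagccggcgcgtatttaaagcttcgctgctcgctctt
The motif begins 166 bases before the start of Btg2 and 62 bases before that of Plk2. A match is a description of these letters and does not show a bound site.

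The p53 decamer, the 10-base unit of the p53 binding site, was found in a single member window, the downstream start of Sesn1, and in 8.36% of all windows. It is shown with 20 bases on either side, in capitals, from chr10:41887246-41887295 on the plus strand.
Sesn1: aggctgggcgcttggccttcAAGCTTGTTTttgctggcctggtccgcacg
Neither the AP-1 site TGACTCA (5.2% of all windows), nor the ATF4 core TGATGNAA (3.97%), nor the antioxidant response core TGACNNNGC (12.4%) was found in a member window. The E-box CACGTG (7.15%) was found in a window of Gdf15. Both strands were searched. No match says only that these letters are not in the window.

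The kinases Plk2 and Plk3 and the regulator Btg2 act on cell division. Btg2 (NCBI gene 12227, chromosome 1, 134074865 to 134079155, minus strand) encodes an antiproliferative protein that brings a deadenylase complex to messenger RNAs. It measured 0.88, 0.75 and 1.25 FPKM in controls 1 to 3 and 4.63, 4.93 and 4.61 FPKM in irradiated libraries 1 to 3. The controls lay close together and the irradiated libraries closer still. Its log2 fold change was 1.55 (SE 0.14, limma adjusted p = 0.00248), and 2.21 with a pseudocount of 0.1, since adding 1 understates the change at such low levels. Btg2 passed the filter on low values through the irradiated group, with 1 control at or above 1 FPKM.

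Plk2 (NCBI gene 20620, chromosome 13, 110395044 to 110400844, plus strand) encodes a polo-like kinase that acts in centriole duplication and in the response to stress. It measured 32.7, 23.4 and 72.1 FPKM in controls 1 to 3 and 107.9, 106.3 and 95.4 FPKM after irradiation. Control 3 held 2.57 times the mean of the other controls, yet remained below every irradiated library. A log2 fold change of 1.41 (SE 0.38, 95% interval 0.51 to 2.31) missed the threshold (limma adjusted p = 0.0551). After quantile normalization it passed (1.47, adjusted p = 0.0482).

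Plk3 (NCBI gene 12795, chromosome 4, 117128655 to 117133963, minus strand), another stress-responsive kinase of that family, measured 17.6, 15.8 and 26.9 FPKM in controls and 26.8, 34.5 and 29.1 FPKM after irradiation. Control 3 and irradiated library 1 were at the same level, and the log2 fold change of 0.59 did not pass (SE 0.22, 95% interval 0.07 to 1.11, limma adjusted p = 0.103). Exons of Tctex1d4 overlap Plk3 on the opposite strand, and the sources used here do not say whether strand was used in counting. Tctex1d4 itself measured 0.19 to 0.61 FPKM.

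Trp53inp1 and Sesn1 represent stress defence. Trp53inp1 (NCBI gene 60599, chromosome 4, 11156441 to 11174379, plus strand) encodes a nuclear stress protein that binds p53 and takes part in autophagy. It measured 4.76, 3.88 and 14.7 FPKM in controls and 31.0, 32.3 and 28.2 FPKM after irradiation. By limma the log2 fold change was 2.05 (SE 0.42, adjusted p = 0.0325), higher than that of 99.0% of the genes tested. The irradiated mean was 6.40 and 7.86 times that of controls 1 and 2 but 2.08 times that of control 3. The call was lost when control 1 (adjusted p = 0.143), control 2 (0.0686) or irradiated library 1, 2 or 3 (0.177, 0.188 and 0.152) was dropped, while the log2 fold change stayed between 1.73 and 2.57 over all alternatives.

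Sesn1 (NCBI gene 140742, chromosome 10, 41810574 to 41908436, plus strand) encodes a sestrin, a leucine-binding protein that restrains the growth kinase mTORC1. It measured 4.84, 4.23 and 9.89 FPKM in controls and 6.41, 7.29 and 5.76 FPKM after irradiation. All irradiated libraries fell between controls 1 and 2 on the low side and control 3 on the high side. Between groups the log2 fold change was 0.11 (SE 0.29, 95% interval -0.58 to 0.79, limma adjusted p = 0.794), and its direction turned after trimmed-mean scaling (-0.03) and quantile normalization (-0.28) and without control 1 (-0.02) or 2 (-0.10). Without control 3 it was 0.43 (limma adjusted p = 0.014), a setting in which 69.1% of the genes tested were called.

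Tigar and Ephx1 encode metabolic enzymes. Tigar (NCBI gene 319801, chromosome 6, 127085116 to 127109552, minus strand) removes an activator of glycolysis and so favours the pentose phosphate pathway. It measured 2.10, 1.57 and 2.33 FPKM in controls and 3.10, 3.56 and 3.57 FPKM after irradiation, with no overlap. Its log2 fold change of 0.56 missed the threshold (SE 0.15, 95% interval 0.21 to 0.92, limma adjusted p = 0.0538), passed without the trend and robust options (adjusted p = 0.0485), and was 0.11 after quantile normalization (adjusted p = 0.516). The antisense gene Platr31 overlaps its exons, and its level was not analysed here.

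Ephx1 (NCBI gene 13849, chromosome 1, 180989556 to 181017569, minus strand) encodes the microsomal epoxide hydrolase, which detoxifies reactive epoxides. It measured 176, 185 and 195 FPKM in controls and 264, 287 and 276 FPKM after irradiation. Unlike Trp53inp1, Plk2 or Gdf15, it differed little among the controls, whose SD on the log2 scale was 0.07. It rose by 0.57 on the log2 scale (SE 0.13, limma adjusted p = 0.0371). The call was lost after trimmed-mean scaling (0.41, adjusted p = 0.0875) and when control 1 (0.147), control 2 (0.065) or irradiated library 1, 2 or 3 (0.200, 0.208 and 0.170) was dropped. The pseudogene Gm36961 overlaps Ephx1 on the same strand, and its level was not analysed here.

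Zmat3 (NCBI gene 22401, chromosome 3, 32334792 to 32365665, minus strand) encodes a zinc-finger protein that binds RNA and influences splicing. It measured 4.44, 3.51 and 5.67 FPKM in controls and 7.47, 7.16 and 7.69 FPKM after irradiation. The groups did not overlap, and the log2 fold change of 0.63 missed the threshold (SE 0.17, 95% interval 0.21 to 1.04, limma adjusted p = 0.0583). It was 0.24 after quantile normalization (adjusted p = 0.167).

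Phlda3 (NCBI gene 27280, chromosome 1, 135766085 to 135769134, plus strand) encodes a protein with a pleckstrin homology domain that keeps the survival kinase AKT from the membrane. It measured 166, 155 and 107 FPKM in controls and 126, 135 and 138 FPKM after irradiation. Here control 3 was the lowest library and controls 1 and 2 the highest, the reverse of Sesn1. Its log2 fold change was -0.07 (SE 0.19, 95% interval -0.52 to 0.38, limma adjusted p = 0.780). The direction turned after quantile normalization (0.16) and without control 1 (0.05). Without control 3 the log2 fold change was -0.27 (limma adjusted p = 0.0363), a setting in which 69.1% of the genes tested were called. Phlda3 was also, after Ephx1, the most abundant member in controls. The mean control level ran from 0.96 FPKM for Btg2 to 185 FPKM for Ephx1.

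Gdf15 (NCBI gene 23886, chromosome 8, 70629393 to 70632470, minus strand) encodes a secreted hormone of stressed tissue that signals through the brainstem receptor GFRAL. It measured 1.31, 1.23 and 13.4 FPKM in controls and 9.07, 6.65 and 4.67 FPKM after irradiation. Control 3 was the highest of all 6 libraries and held 10.5 times the mean of controls 1 and 2. The irradiated mean was 5.19 and 5.53 times the level of controls 1 and 2 but 0.51 times that of control 3. For Gdf15 the log2 fold change was 0.85 (SE 0.72, 95% interval -0.86 to 2.56, limma adjusted p = 0.393), the widest interval among the members. It was 1.74 without control 3 (limma adjusted p = 0.000222), a setting in which 69.1% of the genes tested were called.

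Gdf15 is known to answer to ATF4, the transcription factor of the integrated stress response, as well as to p53. Of 15 tested genes of the ATF4 response, 14 were highest in control 3, where 19.4% of all genes tested were highest in that library. The summed level of the listed genes was 2672 FPKM in control 3 and 981 to 1027 FPKM in each of the other 5 libraries. Trib3 measured 107 FPKM in control 3 against 10.7 FPKM in controls 1 and 2, and Chac1 141 FPKM against 10.3 and 9.08 FPKM. Gadd45a, a growth arrest gene induced by both p53 and stress signalling, measured 118 FPKM in control 3 against 9.02 and 6.11 FPKM. None of the 15 was called between irradiated and control cells by limma (1 higher and 2 lower at an unadjusted p below 0.05). After trimmed-mean scaling 1 was called lower. Without control 3, 9 of the 15 were called higher and 2 lower, where 45.8% and 23.3% of all genes tested were. The irradiated mean was above control 1 in 12 of the 15, above control 2 in 11 and above control 3 in 1. Of all genes tested, 61.1%, 63.5% and 58.4% lay above these controls. After irradiation Trib3 measured 15.4 to 18.9 FPKM, Chac1 27.5 to 37.2 FPKM and Gadd45a 21.9 to 29.6 FPKM. Every irradiated library was below every control for 2 of the 15, Atf4 and Phgdh, and above for 0, against 13.7% and 31.8% of all genes tested. Atf4 measured 353, 347 and 686 FPKM in controls and 222 to 237 FPKM after irradiation (log2 fold change -0.93, limma adjusted p = 0.0661). The part of this stress programme in the levels of Gdf15, Sesn1 and the other members in control 3 was not tested.

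**Figure D2:**
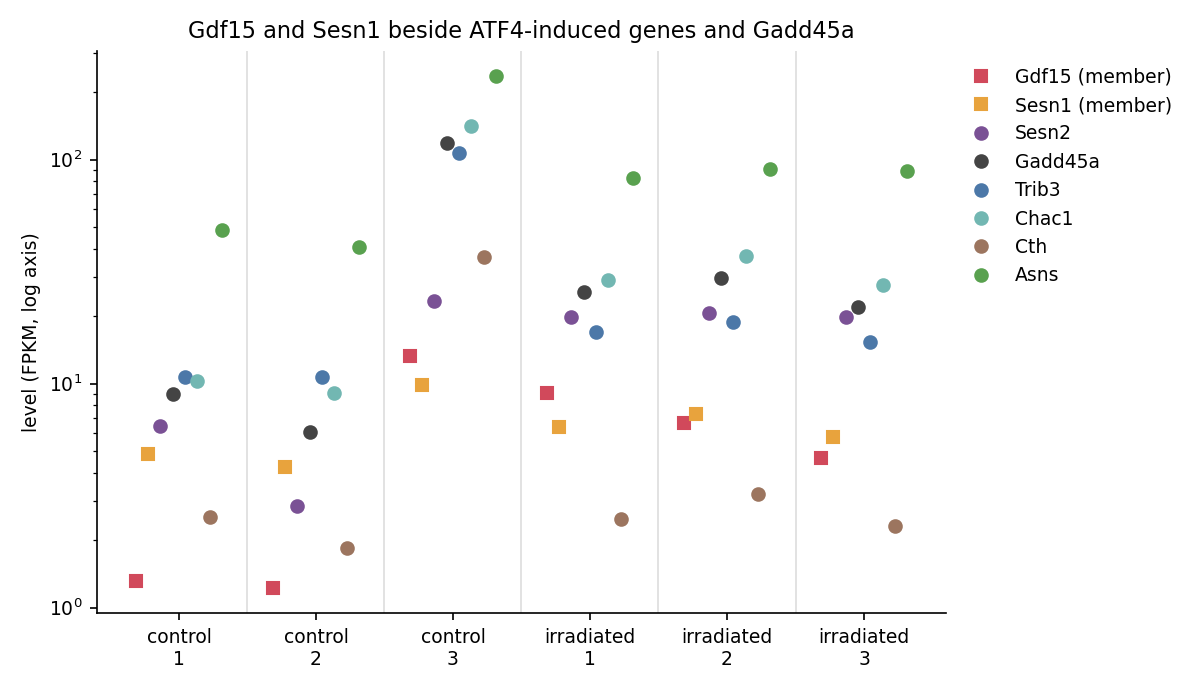
Level in FPKM (log axis) of Gdf15 and Sesn1 (squares), of the ATF4-induced genes Sesn2, Trib3, Chac1, Cth and Asns, and of Gadd45a (circles) in each of the 6 libraries. All 8 genes are highest in control 3, where Gdf15 reads 13.4 FPKM against 1.31 and 1.23 FPKM in controls 1 and 2.

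Set against each control on its own, the irradiated mean was above control 1 in 9 members, above control 2 in 9 and above control 3 in 8. The shares of all genes tested that lay above these controls were 61.1%, 63.5% and 58.4%. The median difference of the members was 0.69, 0.89 and 0.37 on the log2(FPKM + 1) scale against controls 1, 2 and 3, and that of all genes tested was 0.18, 0.29 and 0.07. Control 3 was the highest control for 9 members, as it was for 52.8% of all genes tested. Sesn1 and Gdf15 were the members that lay below control 3 after irradiation, by differences of -0.55 and -0.92. Btg2 and Ephx1 differed from each control by similar amounts, 1.35 to 1.71 and 0.50 to 0.64.

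**Figure D3:**
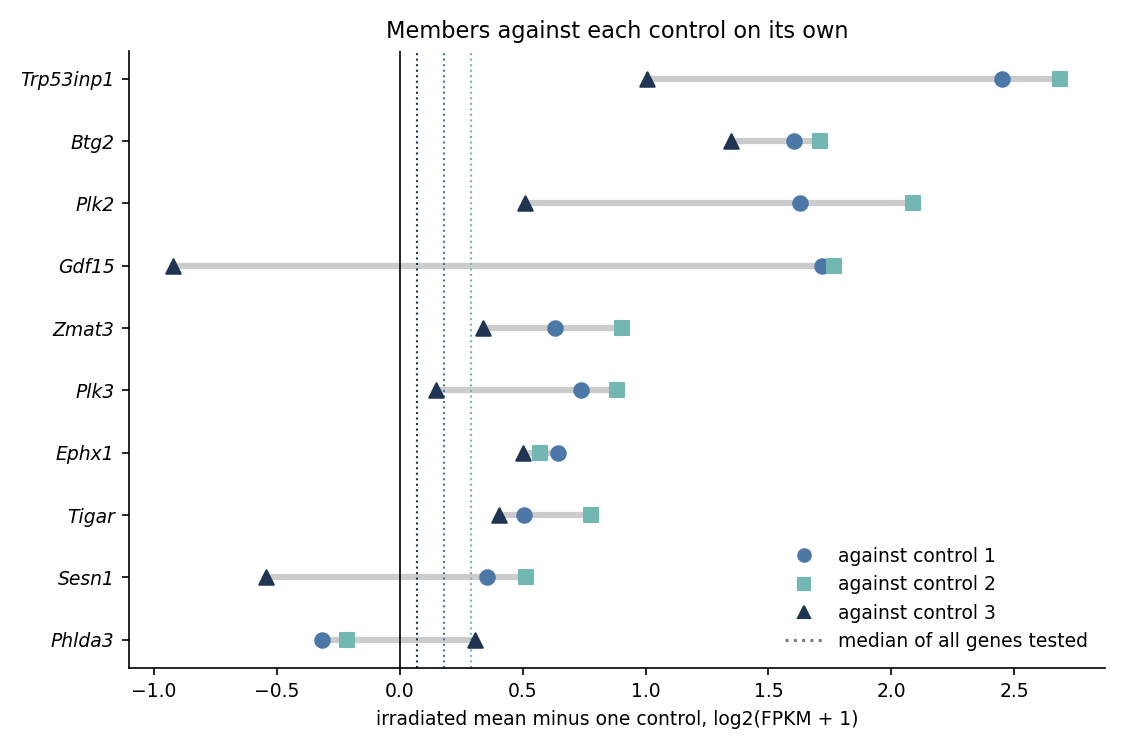
Difference between the irradiated mean and control 1 (circle), 2 (square) or 3 (triangle) on the log2(FPKM + 1) scale for each of the 10 genes, with dotted lines at the medians of all genes tested. Bars for Btg2, Ephx1 and Tigar are short, whereas that of Gdf15 runs from -0.92 to 1.77.

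Relatives are described here for the sestrins, Trp53inp1, the polo-like kinases, Btg2 and Ephx1. Among the sestrins, Sesn2 measured 6.47, 2.86 and 23.5 FPKM in controls and 19.8 to 20.7 FPKM after irradiation (log2 fold change 1.25, 95% interval -0.21 to 2.70, limma adjusted p = 0.176). Sesn3 measured 2.33, 1.28 and 4.07 FPKM in controls and 4.68 to 6.75 FPKM after irradiation (0.94, adjusted p = 0.0773). Sesn2 was the most abundant sestrin by mean, at 10.9 and 20.1 FPKM in control and irradiated libraries against 6.32 and 6.49 FPKM for Sesn1. Trp53inp2, the paralog of Trp53inp1, went from 9.52 ± 4.21 to 16.6 ± 1.41 FPKM without passing (adjusted p = 0.0808). Of the polo-like kinases, Plk1, the mitotic member, measured 70.3 ± 12.0 FPKM in controls and 60.7 ± 4.98 after irradiation (adjusted p = 0.384), and Plk4, the centriole kinase, 18.7, 14 and 27.3 FPKM in controls 1 to 3 and 20.3 to 23.6 FPKM after irradiation (adjusted p = 0.547). Plk1 was above Plk2 in controls 1 and 2, whereas Plk2 was above Plk1 in control 3 (72.1 against 57.04 FPKM) and in every irradiated library.

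Btg1, the nearest relative of Btg2, was far more abundant, at 74.8 ± 9.18 FPKM in controls and 66.0 ± 4.47 after irradiation (log2 fold change -0.17, limma adjusted p = 0.374). Of the 20 paralogs tested, a single gene was called, Tob1, an antiproliferative gene of the same wider family as Btg2. The share of all genes tested that were called higher was 9.24%. Tob1 rose from 6.36 ± 3.86 to 18.2 ± 1.45 FPKM (SD, n = 3, log2 fold change 1.52, SE 0.38, limma adjusted p = 0.0476). That call was lost in 10 of 14 alternatives, among them no filter (0.0678) and trimmed-mean scaling (0.052). Ephx2, the soluble epoxide hydrolase, stayed at or below 0.08 FPKM in every library. The median log2 fold change of the paralogs was 0.19.

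**Figure D4:**
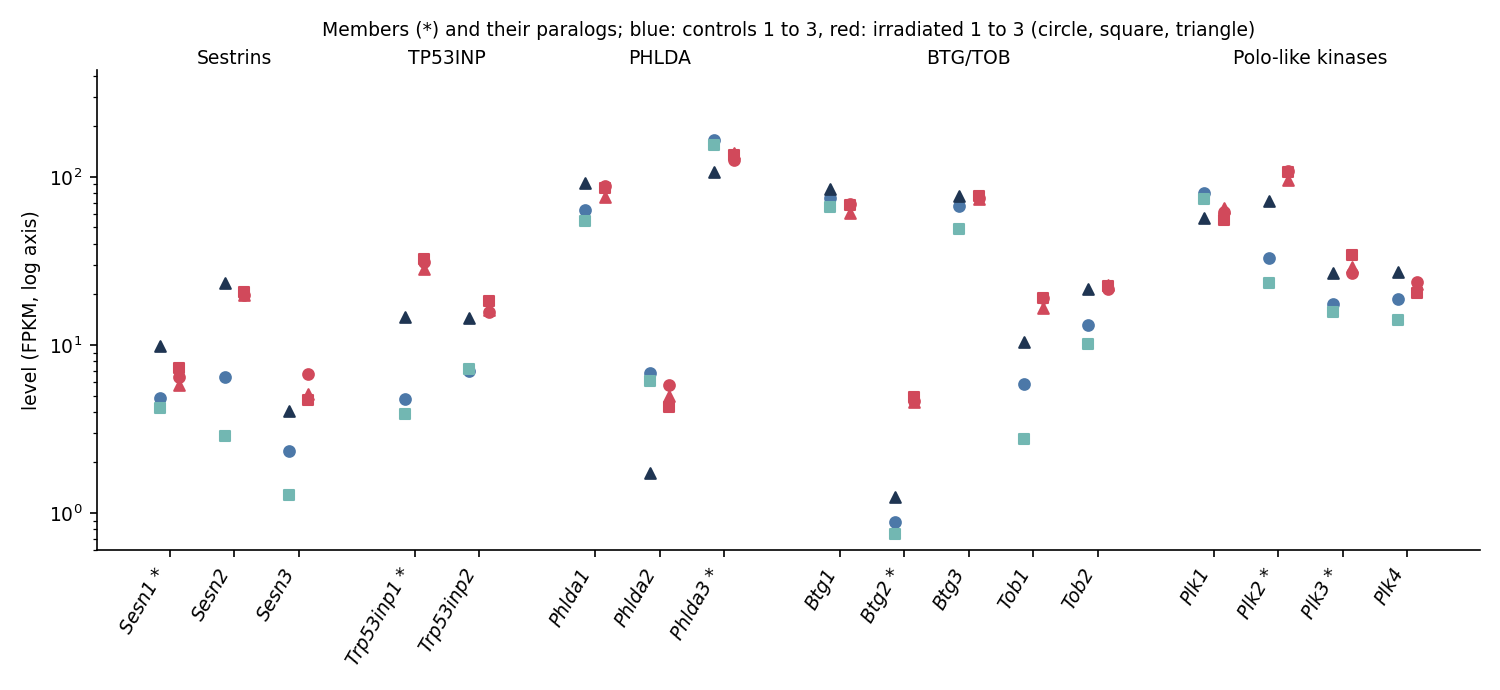
Level in FPKM (log axis) of expressed genes of the sestrin, TP53INP, PHLDA, BTG/TOB and polo-like kinase families, with members marked by an asterisk. Controls 1 to 3 are in blue tones and irradiated libraries 1 to 3 in red. Zmat3, Tigar, Gdf15, Ephx1 and their relatives are not shown. Btg2 lies far below Btg1 and Btg3 in every library, and Plk2 lies above Plk1 in control 3 and in the 3 irradiated libraries.

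Upstream and beside these genes, Trp53 itself measured 150 ± 17.2 FPKM in controls and 171 ± 13.1 after irradiation (log2 fold change 0.19, limma adjusted p = 0.344). Of 63 other genes of the p53 pathway that were tested, 13 rose and 0 fell by limma (30 higher and 1 lower at an unadjusted p below 0.05), with a median log2 fold change of 0.48. Of all 11103 genes tested, 9.24% were called higher and 2.77% lower, with 3020 higher and 1231 lower at an unadjusted p below 0.05. After quantile normalization Fancc, a repair gene, was called lower (-0.83, adjusted p = 0.03). Among 14 regulators, Mdm2, the ligase that degrades p53, rose from 82.8 to 279 FPKM, a log2 difference of 1.74 (limma adjusted p = 0.000838), and Ccng1, Pml and the damage kinase Atm also rose, by 0.97, 0.94 and 0.74 on the log2 scale. Among 7 cell cycle targets, Cdkn1a and the spindle gene Psrc1 rose by 0.90 and 0.57. Among 12 apoptosis targets, the death receptor Fas, the BH3 protein Bid, the receptor Eda2r and the ferrireductase Steap3 rose by 1.61, 1.30, 1.05 and 0.74. Bax measured 338, 403 and 226 FPKM in controls 1 to 3 and 240 to 242 FPKM after irradiation (limma adjusted p = 0.238). Fas, at 0.05 to 0.41 FPKM in controls and 2.76 to 3.04 FPKM after irradiation, passed the filter through the irradiated group.

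Among 8 repair targets, the damage sensor Ddb2 and the translesion polymerase Polk rose by 0.83 and 1.14 on the log2 scale. Among 23 metabolic targets, the group closest in role to the members, Aifm2 alone was called, with a rise of 0.52 (adjusted p = 0.0411 by limma). It did not pass after quantile normalization (0.37, adjusted p = 0.072) or trimmed-mean scaling (0.37, adjusted p = 0.0806), where no metabolic target was called. The glycolytic regulator Pfkfb3, whose product is the metabolite that Tigar removes, measured 1.07, 1.17 and 7.18 FPKM in controls and 9.94 to 11.3 FPKM after irradiation (log2 fold change 1.78, limma adjusted p = 0.0641). Of the 13 calls, 10 were kept under each of these scalings, 3 with the sample number as a replicate block, 2 without control 1 and 7 without control 2, and Mdm2 alone was kept without irradiated library 1, 2 or 3. In the same order, 5.81% and 6.5%, 2.34%, 1.48%, 4.01%, and 0.424% to 0.782% of all genes tested were called higher. Leaving out control 3 kept all 13, but there 69.1% of the genes tested were called.

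**Figure D5:**
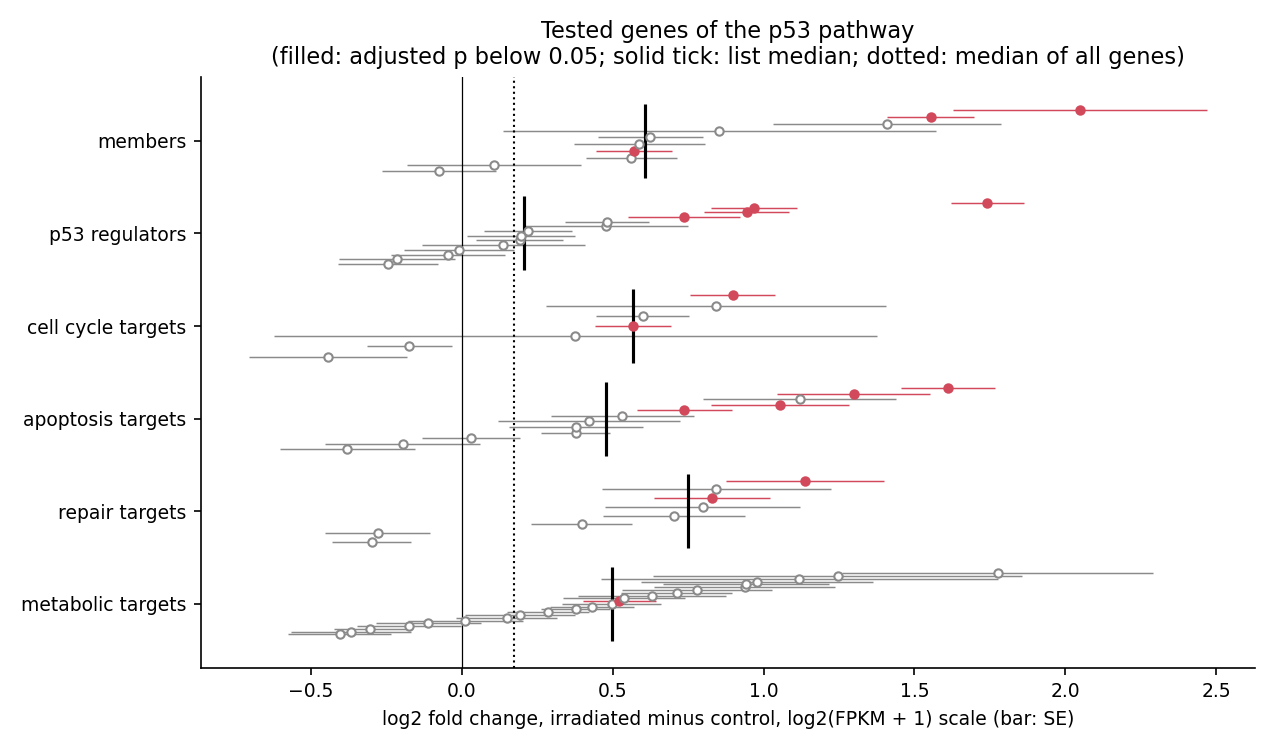
Log2 fold change (irradiated minus control, log2(FPKM + 1) scale, bar for SE) of each tested gene of the members and of 5 other lists of p53 pathway genes. Filled red points passed limma at an adjusted p below 0.05, the solid tick is the list median (0.61 for the members) and the dotted line the median of all genes tested (0.17).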

How the data were processed

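The authors deposited FPKM values, per the file headers, rounded to 2 decimals, for 3 control and 3 irradiated libraries. HISAT and the build GRCm38.p6 are listed in the submitters' processing notes. Ribosomal RNA had been removed before library construction, per the labels' protocols. For the counting tool, annotation and strand setting, the sources used here give nothing. The depth is unknown, so no count model or interval that needs it was used.

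A gene was tested when 3 or more libraries reached 1 FPKM. The test was limma 3.58.1 (R 4.3.3) on log2(FPKM + 1), with eBayes moderation (trend, robust). P-values were adjusted by Benjamini-Hochberg over the genes tested. The 95% intervals come from the same fit, which assumes equal variance in both groups. The script was tested on simulated data with the same spread in both groups and no outlying library. That test does not show how the calls hold under the unequal spread of these libraries. Coordinates and promoters are RefSeq's for GRCm38.p6, and strands and overlaps GENCODE M21's. All 10 members passed the filter. Genes named by rule are the members, called genes of the lists, Trp53, direct paralogs and the 5 genes most like the members. Other genes named, among them Lum, Fancc, Bax, Pfkfb3, Gadd45a, Atf4, Phgdh, Trib3, Chac1, Cth, Asns, Btg3, Furin, Col3a1 and Krt8, were picked with their values in view. Members, lists and tests were chosen with earlier results of these data known. Alternatives were quantile and trimmed-mean scaling, filters, eBayes options, a pseudocount of 0.1, array weights, the sample number as a block, and each library left out.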

Additional observations from a re-analysis of the deposited data

How the results depend on the processing

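Of all 11103 genes tested with limma, 1334 were called (1026 higher, 308 lower). The split was 645 higher and 601 lower after quantile normalization and 722 and 433 after trimmed-mean scaling, scalings that shifted the all-gene median from 0.17 to -0.02 and 0.03 (log2). The count was 727 with a filter at 5 FPKM, where fewer genes were tested, and 9568 with array weights, a fit that stopped before it converged. Leaving out single libraries gave 56 to 7638 calls, the last without control 3. For the members, 3 calls became 10 with array weights, and 1 to 10 when single libraries were left out, with 10 without control 3 (9 higher, and Phlda3 lower) and Btg2 alone without any other library. The counts of members above each control stayed at 8 or 9 under other scalings. Directions turned for Sesn1 after quantile normalization (-0.28), trimmed-mean scaling (-0.026) and without control 1 (-0.02) or control 2 (-0.10), and for Phlda3 after quantile normalization (0.16) and without control 1 (0.046). Without control 3 they were 0.43 and -0.27. The cause was not tested. Depth limits could not be set, because FPKM hold no read numbers.

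The labels give only a sample number and do not say whether same-numbered libraries are paired. Deviations of same-numbered libraries from their group means correlated at -0.11, 0.02 and -0.16, and those of other pairs at -0.17 to 0.26. With 3 libraries per group such deviations are tied to one another, so these values cannot settle the pairing. With the sample number as a replicate block, 300 genes and 1 member, Btg2 (adjusted p = 0.0188), were called.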

Other observations

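Ephx1 is one of many detoxification genes, and others of that programme are given here. Of 15 tested genes of the NRF2 and xenobiotic response, Hmox1, which breaks down haem, and Gsta4, a glutathione transferase for lipid aldehydes, rose. No other gene of that list was called, and 9.24% of all genes tested were called higher. At an unadjusted p below 0.05 by limma, 5 of the 15 were higher and 0 lower. Every irradiated library was above every control for 6 of the 15 and below for 1, against 31.8% and 13.7% of all genes tested. Hmox1 went from 83.8 ± 21.8 to 195 ± 9.29 FPKM (SD, n = 3, limma adjusted p = 0.0185) and Gsta4 from 21.9 ± 2.62 to 55.8 ± 2.35 FPKM (adjusted p = 0.00297). The Hmox1 call was lost without control 1 (0.0943) and without irradiated library 1, 2 or 3 (0.139, 0.155 and 0.120), and that of Gsta4 without irradiated library 1 (0.0501). Nqo1, a standard reporter of NRF2, measured 96.0, 89.4 and 63.9 FPKM in controls and 92.7, 88.0 and 118 FPKM after irradiation (adjusted p = 0.344). Nqo1 was chosen after its values were seen.

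Btg2, Plk2 and Plk3 are also known as immediate early genes, which respond to growth factors within a short time. Of 19 tested genes of that class, Junb alone was called, rising from 86.8 ± 24.7 to 175 ± 8.64 FPKM (SD, n = 3, limma adjusted p = 0.0371). Dropping control 1 (0.134) or irradiated library 1, 2 or 3 (0.194, 0.195 and 0.164) ended that call. Of all genes tested, 9.24% were called higher. At an unadjusted p below 0.05 by limma, 6 of the 19 were higher and 1 lower. Every irradiated library was above every control for 5 of the 19 and below for 1, against 31.8% and 13.7% of all genes tested. Egr1 measured 60.04, 44.4 and 98.9 FPKM in controls and 53.4, 52.6 and 47.3 FPKM after irradiation, and Egr1 was chosen after its values were seen. Of 2 tested genes listed beside Gdf15, Spon2 fell from 18.6 ± 3.21 to 7.21 ± 0.156 FPKM (limma adjusted p = 0.00663). The Spon2 call was lost without control 1 (0.0558) or irradiated library 1, 2 or 3 (0.0768, 0.0863 and 0.0756). Furin, the other, was higher in every irradiated library than in every control but was not called. It measured 13.4, 9.07 and 18.0 FPKM in controls and 22.68 to 23.25 FPKM after irradiation (log2 fold change 0.78, limma adjusted p = 0.0672). None of 5 tested genes tied to the Plk2 and Plk3 proteins was called by limma (0 higher and 1 lower at an unadjusted p below 0.05). Of 6 tested fibroblast markers, 2 rose and 0 fell by limma (2 higher and 1 lower at an unadjusted p below 0.05). Of all genes tested, 9.24% were called higher and 2.77% lower. Control 3 was the highest of the 6 libraries for 4 of these markers, and for 19.4% of all genes tested. Col1a1 rose from 18.9 to 45.9 FPKM (adjusted p = 0.00474), a call lost without irradiated library 1 (0.0562) or 2 (0.0619). Dcn rose from 0.94 to 1.28 FPKM in controls to a mean of 5.32 FPKM (adjusted p = 0.0086), a call that dropping control 1 (0.065) or irradiated library 1, 2 or 3 (0.0531, 0.0544 and 0.0712) ended. Col3a1 measured 33.4 to 45.2 FPKM in controls and 27.7 to 32.35 FPKM after irradiation, every irradiated library below every control (log2 fold change -0.37, adjusted p = 0.122), and was called lower after trimmed-mean scaling (-0.53, adjusted p = 0.0495). Col1a2, Pdgfra and Pdgfrb had log2 fold changes of 0.05, 0.17 and -0.18 and were not called.

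The genes whose levels over the 6 libraries most resembled the mean profile of the members were Fgfr1, Peli1, Dpp8, Dock10 and Ubr3, out of 8476 compared, with Pearson r of 0.998 to 0.999. Fgfr1, a growth factor receptor, measured 44.8, 38.8 and 59.01 FPKM in controls and 75.0, 82.5 and 77.9 FPKM after irradiation. This likeness is a description over 6 libraries that share the same 2 groups.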
